A study of Mus musculus with 6 samples.

Results

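The genes of the mitochondrial respiratory chain and ATP synthase were followed in RNA-seq libraries of mouse liver lymphocytes, 3 from mice given corn oil and 3 from mice given tamoxifen. Members were taken by name from the deposited count table: the Nduf genes other than the Ndufaf assembly factors, Sdha to Sdhd, the Uqcr genes and Cyc1, the Cox4 to Cox8 families, the Atp5 genes and the 13 protein-coding genes of mitochondrial DNA. Of 97 matching names, 3 were pseudogenes and 4 had under 60 counts over the 6 libraries, which left 90 of the 15601 genes in the table. There were 77 nuclear genes (37 of complex I, 4 of complex II, 9 of complex III, 11 of complex IV and 16 of complex V) and 13 mitochondrial genes (7, 0, 1, 3 and 2). The members nearest above the minimum were mt-Nd3 with 135 counts, Atp5l with 142 and Ndufb4 with 181, and those below it were Cox6a2 with 50, Cox6b2 with 37, Atp5g2 with 22 and Cox7a1 with 9. Names follow the table, and some have since changed: Ndufa4 is now usually placed in complex IV, and Atp5sl and Atp5s, counted here with complex V by name, are now known as Dmac2 and Dmac2l.

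Complexes I to IV pass electrons from NADH and succinate to oxygen, complexes I, III and IV pump protons across the inner mitochondrial membrane on the way, and complex V, the ATP synthase, uses the proton gradient to make ATP. Complexes I, III, IV and V combine subunits from nuclear genes, which are translated in the cytosol and imported, with core subunits translated inside mitochondria from mitochondrial DNA, whereas complex II is nuclear only. Mitochondrial DNA is transcribed as long precursors that are cut into individual messages, so the levels of its messages depend on processing and stability as well as on transcription.

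Both groups were liver lymphocytes that the title of the series identifies as type 1 innate lymphoid cells (ILC1s), and treatment was the only labelled difference. Tamoxifen binds oestrogen receptors and is commonly given to switch on Cre recombinases fused to such a receptor. Genotype, Cre driver, age, dose, time after treatment and the number of animals or cells per library are not stated in the labels, so the spread between libraries may be technical. RNA was reverse transcribed with a kit for very small inputs and the cDNA was amplified by PCR without molecular identifiers.

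The libraries held 5289803 to 6325899 counts. Markers of ILC1s and NK cells summed to 2252 to 2604 CPM (counts scaled to library size with TMM factors) in oil and 2474 to 2537 in tamoxifen. Most of each sum came from Ncr1 and Klrb1c, with means of 1234 and 865 CPM over the 6 libraries. Hepatocyte markers summed to 0.549 CPM at most in oil and 1.67 in tamoxifen, endothelial markers to 0.923 and 2.15, and T-cell markers to 155 to 248 and 177 to 303. Macrophage markers summed to 22.1 to 33.7 and 28.0 to 37.0 CPM, and 0 of 3 listed B-cell markers were in the table. It held 2 of 4 listed hepatocyte markers, 1 of 3 endothelial markers (Stab2), 4 of 5 T-cell markers and 3 of 4 macrophage markers. The fit for tamoxifen against oil (edgeR's quasi-likelihood test, Benjamini-Hochberg adjustment) covered 10811 genes and called 1, Serpine2, at an adjusted p under 0.05. In it the ILC1 and NK markers did not all go the same way, and none passed. Their log2 fold changes were 0.02 for Ncr1, 0.26 for Klrb1c, -0.51 for Tbx21, -0.07 for Eomes, -1.19 for Itga1 and -0.90 for Itga2. Every tamoxifen library lay above every oil library for Klrb1c (background 4.52% of genes tested) and below for Itga1 and Itga2 (background 4.35%). Unadjusted p by edgeR's test was 0.0018 for Itga1 and 0.037 for Itga2. Mean levels over the 6 libraries were 118 CPM for Eomes and 23.9 for Itga1.

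Every complex was expressed, and the median mitochondrial message stood above the median nuclear one per unit of length, with overlapping ranges. On the authors' FPKM scale, which divides by gene length, the median over genes of the mean level in the 6 libraries was 65.5 for nuclear members, from 3.06 for Ndufab1 to 603 for Cox5a. For mitochondrial members it was 548, from 11.5 for mt-Nd3 to 3131 for mt-Atp6, and mt-Nd3 and mt-Nd4l (43.0) lay below the nuclear median. The nuclear medians by complex were 61.8 FPKM for I, 139.8 for II, 84.3 for III, 173 for IV and 53.4 for V. These levels depend on the gene lengths the authors used, which can exceed the main transcript (8580 bases for Ndufab1), and on the copies described further on. The ranks within complexes given below are ranks in FPKM, and they change in CPM, which does not divide by length. By mean CPM the highest nuclear members of complexes I to V were Ndufb7 (321), Sdhb (609), Uqcrc1 (1016), Cox4i1 (463) and Atp5b (1543).

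**Figure D1:**
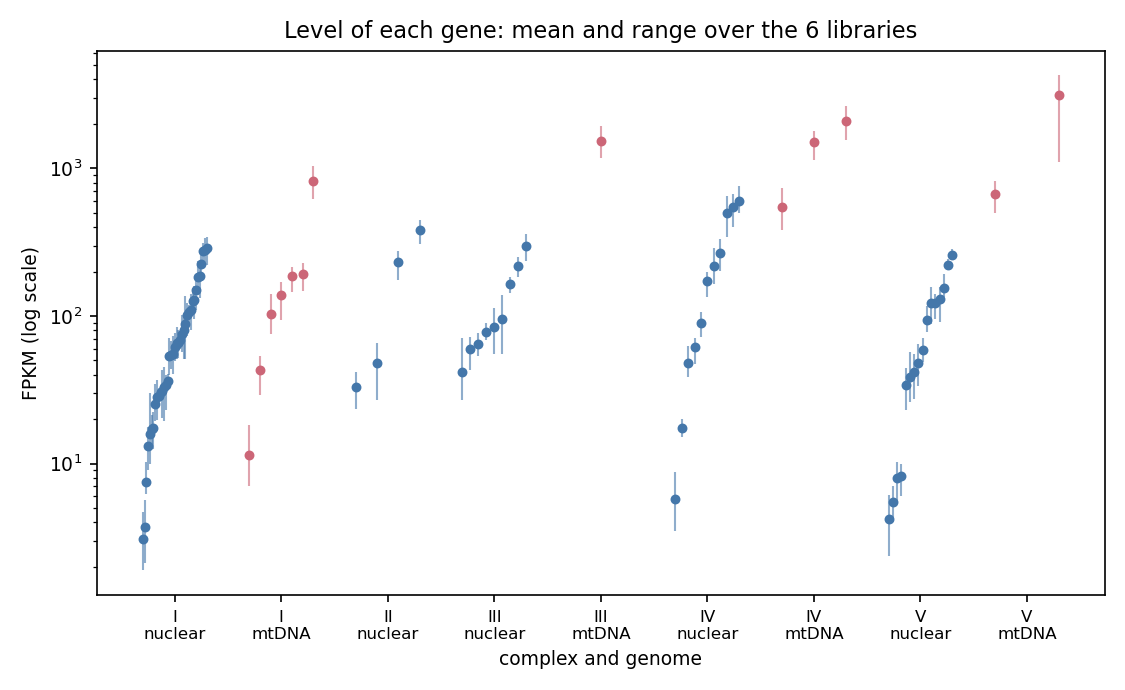
Level of each respiratory chain gene in FPKM on a log axis, by complex and by genome; points are means of the 6 libraries and lines run from the lowest to the highest library. Mitochondrial genes reach 3131 FPKM (mt-Atp6) and nuclear genes 603 FPKM (Cox5a), and members of the same complex differ widely.

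Within complex I, the NADH dehydrogenase, the highest nuclear levels were those of Ndufa8, an accessory subunit, at 287 ± 40.9 FPKM (SD over 6 libraries) and Ndufs8, an iron-sulfur subunit of the core, at 281 ± 47.6. The lowest were Ndufab1, the mitochondrial acyl carrier protein, at 3.06 ± 1.09 and the accessory subunit Ndufb4 at 3.71 ± 1.32.

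In complex II, succinate dehydrogenase, the iron-sulfur subunit Sdhb (232 ± 35.7 FPKM) and the membrane anchor Sdhd (380.4 ± 51.6) stood above the flavoprotein Sdha (47.7 ± 14.3) and the other anchor, Sdhc (33.1 ± 6.15). In complex III, cytochrome c1 (Cyc1, 299 ± 44.7) and the Rieske protein (Uqcrfs1, 217 ± 29.8) were highest in FPKM among nuclear members, below mt-Cytb (1535 ± 300.3), and the small subunits Uqcr11 (59.6 ± 10.3) and Uqcrh, the hinge protein (41.7 ± 16.4), were lowest. Uqcrc1, at 164 FPKM with an authors' length of 6179 bases, had a mean of 1016 CPM against 359 for Cyc1. In complex V, Atp5a1 (260.1 ± 17.2) and Atp5b (222 ± 16.0), the alpha and the catalytic beta chain of the F1 head, led the nuclear members, below mt-Atp6 (3131 ± 1158) and mt-Atp8 (669 ± 133), and Atp5sl (5.47 ± 1.09) and Atp5g1 (4.24 ± 1.41), which encodes a c subunit of the membrane ring, were last.

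Complex IV, cytochrome c oxidase, has isoforms that differ by tissue, and the ubiquitous forms carried nearly all of the signal. Cox6a1 had a mean of 265 FPKM against 2.09 for Cox6a2, the heart and skeletal muscle form, Cox6b1 had 501 against 0.390 for the testis form Cox6b2, and Cox7a2 had 218 and the related Cox7a2l 90.1 against 0.697 for the muscle form Cox7a1. Cox5a (603) and Cox8a (545) were highest among the nuclear members of the complex, beside 2087 for mt-Co3, 1514 for mt-Co1 and 548 for mt-Co2, and Cox7c (5.78) and Cox6c (17.4) lowest, with Cox4i1 at 173, Cox7b at 61.5 and Ndufa4 at 61.8. The 3 genes for the identical mature c subunit of complex V were also unequal, with Atp5g3 at 122, Atp5g1 at 4.24 and Atp5g2 at 0.308 FPKM. The gap in FPKM depends on authors' lengths of 2931 bases for Atp5g3 and 9797 for Atp5g1, and in CPM their means were 360 and 41.8. Atp5g1 also has a processed copy, Gm10039, with 99.76% identity over its whole coding sequence and no counts listed. A processed copy of Atp5g2, Gm10175, is identical to its coding sequence and held 94 counts where Atp5g2 held 22, so reads of these 2 loci could not be assigned from the coding sequence. Cox4i2, Cox8b, Cox8c, Cox7b2 and Ndufa4l2 were not among the matching names, so the table held no gene under these names.

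In the comparison of tamoxifen with oil, no respiratory chain gene passed. Of the 90 members, all of which passed the default filter on low counts, 0 had an adjusted p under 0.05 (background 0.00925% of genes tested) and 0 an unadjusted p under 0.05 (background 3.52%). DESeq2 also called 0 members (background 0.167%). The smallest p was 0.0543, for Ndufa4, and the smallest adjusted p was 0.999 by edgeR's test. Each library gives only a total per gene, so fewer cells of a type and less RNA per cell cannot be told apart.

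The estimates were small and mostly above 0, with 72 members higher and 18 lower in tamoxifen (background 49.5% higher), but with a length-trend covariate only 36 of 90 were higher (background 52.2%) and 38 members had the other sign. That covariate is the slope of a library's log2 level on log2 gene length. The median log2 fold change was 0.07 over nuclear members and 0.23 over mitochondrial members, beside -0.00 over all genes tested, and with the covariate it was -0.06 and 0.10. Short genes in general also leaned upward. Among all 1055 tested genes of 1500 bases or shorter, 638 were higher (median 0.06), beside 25 of 30 nuclear members of that length (median 0.08). Among all 9756 longer genes, 4714 were higher (median -0.01), beside 34 of 47 longer nuclear members (median 0.04). By complex, the nuclear medians were 0.04 for I, 0.09 for II, 0.05 for III, 0.09 for IV and 0.09 for V, and each was within -0.10 to 0.32 with any 1 library left out. The sign of the nuclear median depended on which oil library was left out. Without oil replicate 3, 85 members were higher (background 49.0%), 19 had an unadjusted p under 0.05 (background 8.02%) and the nuclear and mitochondrial medians were 0.29 and 0.50. Without oil replicate 2, 30 were higher (background 50.1%) and the medians were -0.09 and 0.08.

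At most 3 members had an unadjusted p under 0.05 under any setting run other than leaving out oil replicate 3. The count was 3 with the length trend (background 7.20%), 2 with limma on log2(FPKM + 1) (background 4.12%), 2 with limma on log2(FPKM + 0.1) (background 4.05%), 1 with upper-quartile factors (background 3.51%) and 1 with the replicate number as a block (background 5.22%). With a library other than oil replicate 3 left out, the count was 1 without oil replicate 1 (background 2.99%), 0 without oil replicate 2 (3.24%), 1 without tamoxifen replicate 1 (2.92%), 0 without tamoxifen replicate 2 (4.97%) and 0 without tamoxifen replicate 3 (2.54%). Each of these shares lay below its background, unlike that without oil replicate 3.

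**Figure D2:**
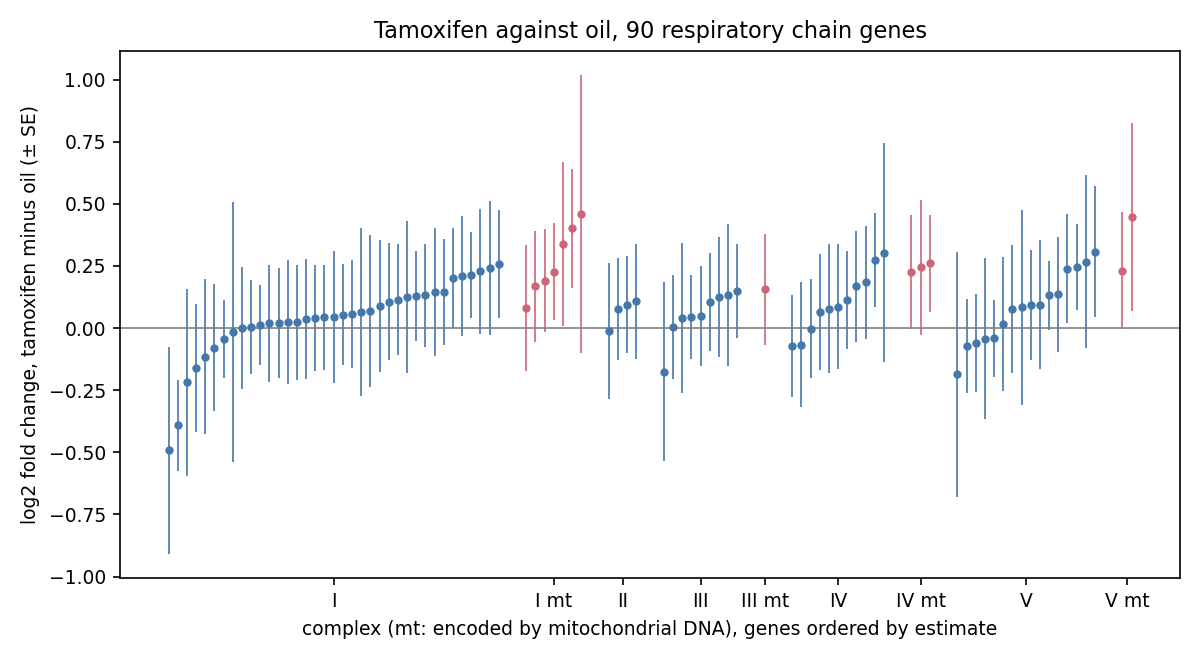
Log2 fold change of tamoxifen against oil for each member, with its standard error from edgeR's quasi-likelihood fit (3 libraries per group), ordered by estimate within each complex and genome. All 13 mitochondrial estimates lie above 0, at 0.08 to 0.46 (mt-Nd2 at -0.04 with the length-trend covariate), nuclear estimates lie between -0.49 and 0.31, and no gene passed the test.

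Ndufa4 (chromosome 6, 11900292 to 11907497, minus strand, mm10) had the smallest p. Its levels were 159, 199.6 and 207 CPM in oil and 164, 129 and 138 CPM in tamoxifen. Tamoxifen replicate 1 lay above oil replicate 1, so the groups overlapped, while the other tamoxifen libraries were the lowest of all. Group means were 189 ± 25.9 CPM in oil and 144 ± 18.4 in tamoxifen (SD, n = 3). The log2 fold change was -0.39 (SE 0.18) and lay between -0.51 and -0.32 with any 1 library left out. The nuclear member of complex I with the next smallest p, the accessory subunit Ndufa10, stood at 159, 150.2 and 184 CPM in oil and 203, 165 and 203 in tamoxifen (log2 fold change 0.21, SE 0.17), with overlapping groups.

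Atp5a1 was the only member whose groups did not overlap (1 of 90 with tamoxifen higher, background 4.52%; 0 of 90 lower, background 4.35%). It stood at 1329, 1272 and 1332 CPM in oil and 1529.6, 1429 and 1352 in tamoxifen, with means of 1311 ± 33.7 and 1437 ± 89.2 (SD, n = 3). Its log2 fold change was 0.13 (SE 0.14). In either direction, 1 of 90 members had groups that did not overlap, below the background of 8.87%.

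The 2 nuclear members with the smallest p in each of the other complexes overlapped between groups in all cases. In complex II, Sdhd stood at 447, 381 and 602 CPM in oil and 537, 442 and 547 in tamoxifen (log2 fold change 0.09, SE 0.19). Sdhc stood at 115, 86.9 and 167 CPM in oil and 136, 137 and 125 in tamoxifen (0.11, SE 0.23). For both anchors, oil replicate 2 was the lowest library and oil replicate 3 the highest. In complex III, the core subunit Uqcrc2 stood at 236, 231 and 311 CPM in oil and 319, 235 and 309 in tamoxifen (0.15, SE 0.19). Uqcrfs1 stood at 264, 242 and 355 CPM in oil and 349, 253 and 324 in tamoxifen (0.10, SE 0.20). Oil replicate 2 was again lowest for both.

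Among complex IV genes, Cox7a2l, which takes part in joining complexes III and IV into supercomplexes, stood at 93.3, 79.9 and 109 CPM in oil and 113, 103 and 126 in tamoxifen (log2 fold change 0.27, SE 0.19). Cox8a, a small membrane subunit, stood at 248, 213 and 381 CPM in oil and 342, 263 and 351 in tamoxifen (0.18, SE 0.23). Oil replicate 3 exceeded every tamoxifen library for Cox8a but not for Cox7a2l. In complex V, Atp5o, the stalk subunit that confers oligomycin sensitivity, stood at 404, 287 and 359 CPM in oil and 448, 376 and 421 in tamoxifen (0.25, SE 0.17). Atp5sl stood at 27.5, 21.0 and 30.5 CPM in oil and 26.3, 36.9 and 34.6 in tamoxifen (0.31, SE 0.26). Exons of Atp5o, Ndufa13, Ndufb6 and Uqcrc2 share 17.6% to 39.0% of their bases with a gene on the opposite strand, and no source used here gives the strand setting of the counts, so their values may include reads of those neighbours.

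All 13 mitochondrial genes had a higher estimate in tamoxifen, except that mt-Nd2 was at -0.04 with the length-trend covariate, and in all 13 the highest oil library lay above the lowest tamoxifen library. The cytochrome c oxidase core subunit mt-Co1 (mitochondrial DNA, 5328 to 6872, plus strand) had 1738, 1868 and 2820.2 CPM in oil and 2548, 2320.4 and 2829 in tamoxifen (log2 fold change 0.26, SE 0.20). The complex I subunit mt-Nd6, the only protein-coding gene of the other strand, stood at 56.3, 47.4 and 83.3 CPM in oil and 83.2, 73.4 and 90.3 in tamoxifen (0.40, SE 0.24). In both genes oil replicates 1 and 2 lay below every tamoxifen library, and oil replicate 3 lay among them. The cytochrome b gene mt-Cytb, the mitochondrial subunit of complex III, stood at 1402, 1292 and 2330.0 CPM in oil and 1968, 1606 and 2022 in tamoxifen (0.16, SE 0.22), with oil replicate 3 above all others. Without oil replicate 2 the estimate of mt-Nd2 was -0.10 and that of mt-Cytb -0.00.

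The other complex I genes, mt-Nd1, mt-Nd2, mt-Nd3, mt-Nd4, mt-Nd4l and mt-Nd5, had log2 fold changes of 0.17, 0.08, 0.46, 0.19, 0.34 and 0.23, with standard errors of 0.22, 0.25, 0.56, 0.21, 0.33 and 0.20. Those of mt-Co2, mt-Co3 and mt-Atp8 were 0.25, 0.22 and 0.23, with standard errors of 0.27, 0.23 and 0.23. None of these genes passed the test.

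mt-Atp6, which encodes the proton-channel subunit of ATP synthase (mitochondrial DNA, 7927 to 8607, plus strand), differed from its neighbours in oil replicate 1. It stood at 738, 1694 and 3038 CPM in oil and 2617, 2105 and 2728 in tamoxifen. Its ratio to mt-Co3, the next gene on the same strand, was 0.600 in oil replicate 1 and 1.36 to 1.44 in the other 5 libraries, whereas the ratio of mt-Co3 to mt-Co1 ran from 0.629 to 0.765. The log2 fold change of mt-Atp6 was 0.45 (SE 0.38), and 0.07 without oil replicate 1. The annotation gives mt-Atp8 and mt-Atp6 overlapping exons (21.1% of mt-Atp8), yet mt-Atp8 showed no such drop, at 106, 98.1 and 176 CPM in oil. A nuclear copy identical to the coding sequence of mt-Atp6, Gm10925, held 836 counts in oil replicate 1 and 928 to 1520 in the others. The reason for the low value was not tested.

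**Figure D3:**
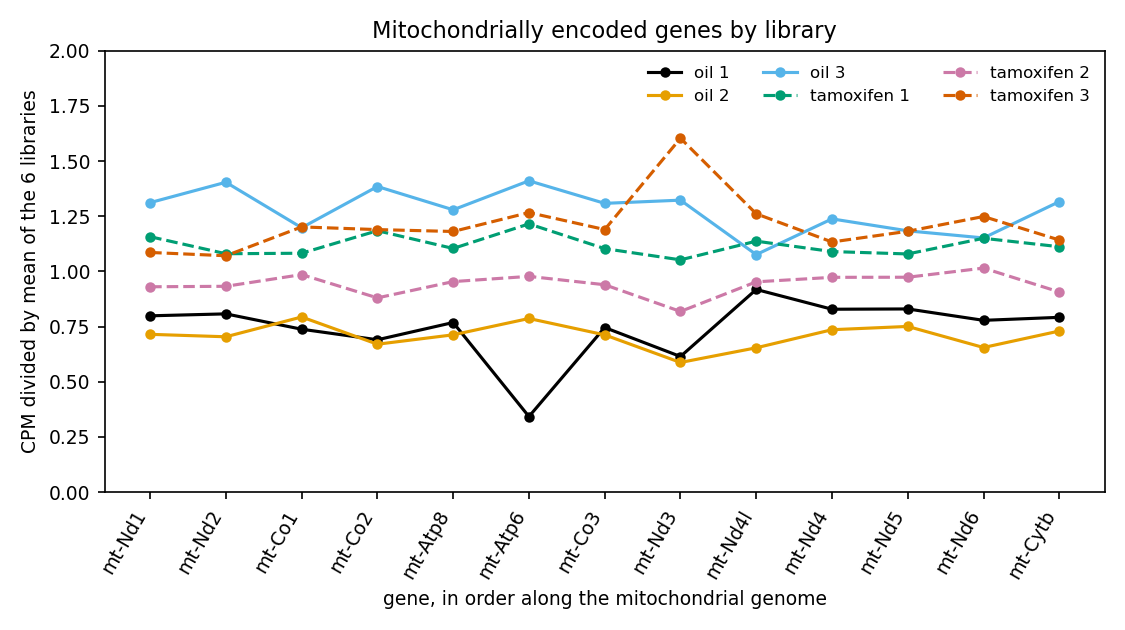
CPM of the 13 mitochondrial genes divided by the gene's mean over the 6 libraries, in order along mitochondrial DNA, with a line per library (solid for oil, dashed for tamoxifen). Oil replicate 1 drops at mt-Atp6, where CPM was 738 against 1694 to 3038 in the other libraries, and tamoxifen replicate 3 lies above oil replicate 3 at mt-Nd3, mt-Nd4l and mt-Nd6 and just above it at mt-Co1.

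The oil libraries differed more from each other than the group medians did, in nuclear and mitochondrial members alike. Oil replicate 3 was the highest library for 65 of 90 members and oil replicate 2 the lowest for 69 of 90. Relative to each gene's mean log2 level over the 6 libraries, the median nuclear member stood at -0.11, -0.39 and 0.35 in oil and 0.17, -0.20 and 0.15 in tamoxifen. The median mitochondrial member stood at -0.32, -0.45 and 0.42 and at 0.18, -0.04 and 0.29. Oil thus held both the highest and the lowest library for either genome, with the tamoxifen libraries between them.

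**Figure D4:**
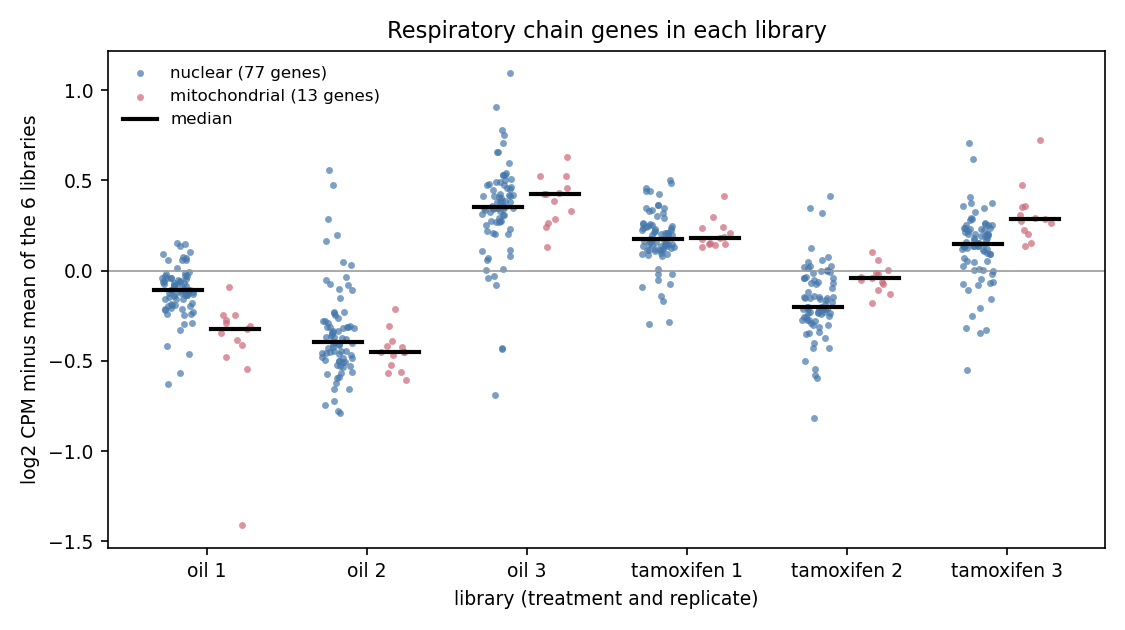
Log2 CPM of each member minus its mean over the 6 libraries, by library, for 77 nuclear and 13 mitochondrial genes; black bars are medians. Oil replicate 2 lies lowest (nuclear median -0.39) and oil replicate 3 highest (0.35), and the tamoxifen libraries lie between them.

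The summed level of the mitochondrial members was 6775, 7540 and 13082 CPM in oil and 11356, 9570 and 11956 in tamoxifen, and that of the nuclear members was 16200.5, 14089 and 20806 in oil and 19234, 15741 and 18365 in tamoxifen. The ratio of the first to the second was 0.418, 0.535 and 0.629 in oil and 0.590, 0.608 and 0.651 in tamoxifen. Oil replicate 1 was lowest in this ratio, and oil replicate 3 lay within the range of tamoxifen.

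Other measures of the libraries ran in nearly the same order. The slope on gene length was 0.04, 0.11 and -0.08 in oil and -0.06, 0.05 and -0.06 in tamoxifen, so libraries with high respiratory chain levels also had relatively more counts for short genes. Among all 1055 tested genes of 1500 bases or shorter, the median deviation was -0.10, -0.27 and 0.29 in oil and 0.13, -0.14 and 0.16 in tamoxifen, the order of the nuclear members except that tamoxifen replicates 1 and 3 changed places. Haemoglobin Hba-a1, an erythroid marker, stood at 100.1, 3.11 and 407 CPM in oil and 156, 55.8 and 166 in tamoxifen, again lowest in oil replicate 2 and highest in oil replicate 3. Erythroid genes summed to 3.11 to 465 CPM in oil and 61.3 to 187 in tamoxifen, with all 3 listed markers in the table and Hbb-bt and Alas2 at 0 in oil replicate 2. The part of these measures in the respiratory chain levels was not tested.

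Among nuclear members, the contrast between oil replicates 3 and 2 differed with the length of the coding sequence (classes chosen after the values were seen). The median ratio of the 2 libraries was 1.81 for 45 members under 500 bases, 1.63 for 21 members of 500 to 1000 bases and 1.06 for 11 members over 1000 bases. It was 1.79 for the 13 mitochondrial genes. Oil replicate 3 was the lower of the 2 in 4 of the 11 long members, 0 of the 21 intermediate ones and 2 of the 45 short ones. Sdha, whose product binds succinate and FAD, stood at 279, 349 and 156 CPM in oil and 205, 314 and 259.8 in tamoxifen, highest where Sdhb was lowest. Sdhb stood at 588, 439 and 751 CPM in oil and 659.7, 536 and 681 in tamoxifen, and the ratio of Sdha to Sdhb ran from 0.208 in oil replicate 3 to 0.796 in oil replicate 2. Ndufs1, the largest iron-sulfur subunit of complex I, stood at 159, 133 and 105 CPM in oil and 161, 190.4 and 123 in tamoxifen, lowest in oil replicate 3. Among the members that varied least over the 6 libraries were Ndufv1, the flavoprotein that takes up electrons from NADH, with 1.14-fold between its highest and lowest library, Atp5a1 with 1.20-fold and Atp5b with 1.27-fold.

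Near-identical copies elsewhere in the genome limited what the counts of some members mean. Annotated transcripts with at least 95% identity over at least 80% of a member's principal coding sequence (GENCODE M21) were found for 28 members, 22 nuclear and 6 mitochondrial, 46 copies in all. In 13 members, 7 of them nuclear, the table also held counts at the copies. No source used here says how reads that match more than 1 place were counted. For 4 nuclear members the copies held most of the counts. Of these, 3 are shown, each with a copy that held counts, because the bases in capitals are the only ones that tell the pair apart within the stretch. Over the whole aligned coding sequence each of the pairs shown differed at 2 bases, and Atp5h and Gm10250 also at 3 gap bases. No coding base separates Cox7c from another copy, Gm12338, which is identical over the whole coding sequence and has no counts listed. Sequence outside the coding sequence was not compared. The stretches are coding bases 39 to 98 of Atp5h, 51 to 110 of Ndufs5 and 77 to 136 of Cox7c, from GENCODE M21 transcripts.
Atp5h: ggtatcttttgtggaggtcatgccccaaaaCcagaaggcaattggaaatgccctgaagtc
Gm10250: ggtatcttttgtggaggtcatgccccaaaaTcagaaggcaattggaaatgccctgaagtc
Ndufs5: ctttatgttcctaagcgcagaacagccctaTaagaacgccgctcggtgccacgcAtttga
BC002163: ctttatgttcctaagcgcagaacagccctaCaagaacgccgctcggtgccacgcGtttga
Cox7c: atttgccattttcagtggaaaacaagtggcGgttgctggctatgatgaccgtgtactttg
Gm10012: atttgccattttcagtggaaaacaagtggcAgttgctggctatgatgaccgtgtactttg

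Atp5h, the d subunit of the ATP synthase stalk (chromosome 11, 115415689 to 115419962, minus strand), held 3768 counts, whereas its processed pseudogene Gm10250 (chromosome 15, 5120654 to 5121135, minus strand) held 9993, which is 72.6% of the sum. Ndufs5, a small accessory subunit of complex I (chromosome 4, 123712710 to 123718202, minus strand), held 757 counts against 1815 at BC002163 on chromosome 16, or 70.6% at the copy. Cox7c, a small subunit of complex IV, held 341 against 544 at Gm10012 on chromosome 17, or 61.5%. Atp5l, the g subunit of complex V, held 142 against 633 at 3 copies, or 81.7%.

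The low FPKM value given above for Cox7c is that of the parent locus alone. Cox5b, another complex IV subunit, held 4120 counts against 2850 at Gm11273 on chromosome 13, which is annotated as protein coding. Of the mitochondrial members, mt-Nd3 had 19.6% of the summed counts at a copy, mt-Co3 10.8%, mt-Atp6 8.45%, mt-Co2 7.93%, mt-Nd4l 7.64% and mt-Co1 0.545%. For all of these but mt-Co1, the copies with counts included a block on chromosome 1 between 24612407 and 24615565, and those of mt-Atp6, mt-Co2, mt-Co3 and mt-Nd4l are identical to the mitochondrial sequence where they align. The split of counts was similar in the 2 groups: the percent at the copy ran from 71.9 to 74.9 in oil and from 69.8 to 73.1 in tamoxifen for Atp5h, and from 69.3 to 74.2 and 67.4 to 70.9 for Ndufs5. For Cox7c it ran from 49.7 to 75.9 and from 48.1 to 69.6. With the counts of copies added to their members, 0 of 90 passed edgeR's test, and the nuclear and mitochondrial medians were 0.06 and 0.24.

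**Figure D5:**
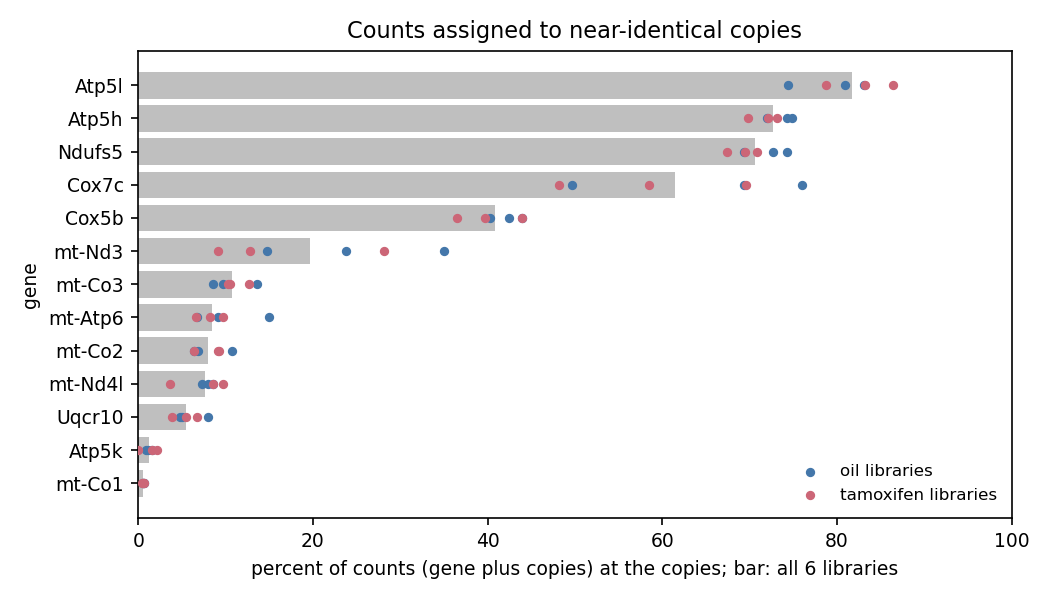
Percent of counts at near-identical copies, out of the counts of the member plus its copies, for the 13 members with counts at a copy; grey bars pool the 6 libraries and points are single libraries, by treatment. Copies held 81.7% for Atp5l, 72.6% for Atp5h, 70.6% for Ndufs5 and 61.5% for Cox7c, and oil and tamoxifen points overlap for these genes.

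Median levels also differed with the number of copies, with widely overlapping ranges. The median level was 78.2 FPKM (range 5.47 to 603) for the 55 nuclear members with 0 copies. It was 53.9 (3.06 to 224) for the 18 with 1 or 2 and 28.0 (5.78 to 84.3) for the 4 with 3 or more. Ndufb4, which is among the lowest members at 3.71 FPKM, has a copy identical over the whole coding sequence, Ndufb4c, for which the table lists no counts. Whether reads were lost to copies was not tested.

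The promoters of the nuclear members were searched for the motifs of 3 factors known to act at respiratory genes in mammals. RefSeq windows from 250 bases before to 50 bases after the start (GRCm38.p6, the mm10 build) were matched for 62 of 77 members, on both strands. A gene was counted if any of its windows held the motif. The NRF1 motif was in 16 of the members (25.8%), against 12.9% of 7930 tested genes and 5.19% of all 27025 genes with a window. The ETS motif CCGGAAG, the type that GABP binds, was also in 16 (25.8%), against 23.1% and 9.93%. The YY1 motif was in 4 (6.45%), against 2.13% and 0.755%, and all 4 were complex I genes, namely Ndufa9, Ndufs4, Ndufs6 and Ndufs7. By complex, the NRF1 motif was in 7 of 33 genes for I, 2 of 3 for II, 1 of 5 for III, 1 of 9 for IV and 5 of 12 for V. Overlap between matches of different motifs was not counted, and a match is a description of the letters, not of binding. The patterns searched for NRF1 and YY1 were written from general knowledge of these motifs and not checked against a motif database, so their shares hold for those patterns only. The NRF1 and YY1 motifs are given by name, and the capitals below show the letters matched for NRF1.
Windows of 60 bases upstream of the start are shown for a gene each of complexes I, II, IV and V. The NRF1 motif is in capitals, and members of different complexes share it. In order, they are chr4:123718250-123718309, chr9:50603894-50603953, chr5:115349041-115349100 and chr11:115420026-115420085, all on the minus strand.
Ndufs5: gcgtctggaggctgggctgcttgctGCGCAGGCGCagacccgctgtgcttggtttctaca
Sdhd: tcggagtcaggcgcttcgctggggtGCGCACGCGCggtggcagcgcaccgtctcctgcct
Cox6a1: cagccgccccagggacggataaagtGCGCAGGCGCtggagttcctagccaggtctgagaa
Atp5h: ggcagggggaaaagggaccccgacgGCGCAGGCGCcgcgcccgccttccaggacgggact

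Genes that build, feed or regulate the chain were read from 6 lists in the same fit, and 0 of their genes passed edgeR's test; DESeq2 called 0 as well. Of 46 tested assembly factors, 24 had higher and 22 lower estimates (median log2 fold change 0.02), and 1 had an unadjusted p under 0.05 (background 3.52%), a share below that of all genes. That gene was Sdhaf3, an assembly factor of complex II, at 4.35, 3.84 and 7.20 CPM in oil and 12.8, 10.4 and 9.35 in tamoxifen (log2 fold change 1.08, SE 0.41), and its groups did not overlap. Timmdc1, an assembly factor of complex I, stood at 5.44, 4.39 and 6.65 CPM in oil and 3.33, 1.33 and 4.01 in tamoxifen (-0.93, SE 0.56), with every tamoxifen library below every oil library. Both rest on few counts, 269 and 142 in all. Of the 46 assembly factors, 2 had every tamoxifen library above every oil library (background 4.52%). Another 2 had every tamoxifen library below (background 4.35%), so both shares were near those of all genes.

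Electron carrier and ubiquinone synthesis genes were 10 higher and 2 lower of 12 tested (median 0.15), with Coq10a, a ubiquinone-binding protein, at 0.41 (SE 0.30) and Coq6, a ring hydroxylase of ubiquinone synthesis, at -0.32 (SE 0.25). Genes for replication and transcription of mitochondrial DNA were 8 higher and 8 lower of 16 (median -0.00), and Tfam, which packages and helps transcribe mitochondrial DNA, stood at 68.1, 66.2 and 64.1 CPM in oil and 69.6, 58.7 and 71.4 in tamoxifen. Tfb1m, an rRNA methyltransferase of mitochondria, was at 0.43 (SE 0.39) and Mterf4, of the mitochondrial termination factor family, at -0.22 (SE 0.35). The Tfam values lay close together and the groups overlapped.

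Transcriptional regulators of respiratory genes were 4 higher and 5 lower of 9 tested (median -0.01). Gabpb2, a subunit of GABP, was at -0.53 (SE 0.29) and Myc at 0.20 (SE 0.18). The coactivator Ppargc1a held 12 counts over the 6 libraries and was not tested. Tricarboxylic acid cycle enzymes were 9 higher and 4 lower of 13 (median 0.08), with Dld, dihydrolipoamide dehydrogenase, at 0.21 and Fh1, fumarase, at 0.17. Of the adenine nucleotide and phosphate carriers and uncoupling proteins, 4 of 4 tested had higher estimates (median 0.19). Slc25a4, an ADP/ATP carrier, stood at 356, 339 and 400.1 CPM in oil and 465, 381 and 474 in tamoxifen (0.27, SE 0.16), and the inner-membrane carrier Ucp2 at 384, 449 and 614 CPM in oil and 567, 494 and 609.9 in tamoxifen (0.21, SE 0.19).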

How the data were processed

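Libraries of liver lymphocytes, 3 per treatment, were compared from 1 table of the whole series. The counts in it are whole numbers per gene as deposited by the authors, without normalization, and its FPKM values, scaled by the authors to gene length and library size, are used as given, per the file headers. The deposited p-value and q-value columns were not used. HISAT2, StringTie and the mm10 build are named, without roles, per the submitters' processing notes. No source used here states the counter, the strand setting or the handling of reads matching several places; the last 2 bear on genes with near-identical copies or overlapping neighbours. Totals per library ran from 5289803 to 6325899 counts. By counting error only, a count of 0 allows up to 0.474 to 0.567 CPM, the worth of 3 counts.

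Tamoxifen was compared with oil by the quasi-likelihood test of edgeR 4.0.16 in R 4.3.3, with TMM factors, the default filter and no covariate, adjusted by Benjamini-Hochberg over 10811 genes with a threshold of 0.05, checked on simulated data. Standard errors come from the F statistic. Members were read from that fit, with no adjustment over the members alone and no set test. The members and the pathway lists were chosen with earlier results of these data known. Named genes were the mitochondrial members, the 2 nuclear members per complex with the smallest p, the highest and the lowest mean FPKM, the isoform families, and the 2 genes with the smallest p per pathway list. Others were named after their values were seen, among them the genes with copies, Ndufs1, Ndufv1, Tfam and Ppargc1a. Some genes are not reported here.

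Alternatives were RLE and upper-quartile factors, no filter, a filter of 10 counts, DESeq2 1.42.0, limma-voom (limma 3.58.1), limma on log2(FPKM + 1) and log2(FPKM + 0.1), the replicate number as a block, the length trend as a covariate, each library left out, and, added after seeing the data, the counts of copies added to members. Copies were found with blastn 2.17.0 against GENCODE M21 transcripts.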

Additional observations from a re-analysis of the deposited data

How the results depend on the processing

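The 0 of 90 respiratory chain genes past the threshold held under every alternative run. The count over all genes, 1 as reported, was 6 with no filter, 0 with the replicate block, 11 with the length trend as a covariate, 18 with DESeq2, 0 with limma on FPKM at a pseudocount of 1, 0 at a pseudocount of 0.1, and 0 to 6 with 1 library left out; it was 1 under the other settings. With the length trend, 38 of 90 members changed sign, among them the named mt-Nd2, Sdhd and Uqcrfs1, at -0.0434, -0.0260 and -0.0259; the cause was not tested. With 1 library left out, 30 to 85 members were higher, and the medians ran from -0.09 to 0.29 for nuclear and from 0.08 to 0.50 for mitochondrial members. Of the 90 members, 60 changed sign in at least 1 of these fits, 44 of them without oil replicate 2. Named genes that did so included mt-Nd2 (-0.10 to 0.44), mt-Cytb (-0.000247 to 0.46), Sdhd (-0.0435 to 0.29), Sdhc (-0.0881 to 0.39), Uqcrfs1 (-0.00329 to 0.28) and Mterf4 (-0.42 to 0.0185).

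Same-numbered libraries had correlations of deviations of -0.07, 0.27 and 0.16. Oil replicate 1 correlated best with tamoxifen replicate 2 (0.11). Oil replicate 3 correlated nearly equally with tamoxifen replicates 1 (0.165) and 3 (0.164). With 3 libraries per group these values cannot decide whether the numbers are pairs, and the main fit did not take them as pairs. With the replicate block the medians were 0.10 (nuclear) and 0.28 (mitochondrial), and 75 members were higher. Having 3 libraries per group and PCR without molecular identifiers limit precision; for mt-Nd3, Atp5l, Ndufb4 and Cox7c low counts add to this.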
